A study of Arabidopsis thaliana with 8 samples.

Results

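The windows described here are the 500-bp regions downstream of annotated *Arabidopsis* genes in which reads were higher in *cpsf30-1* than in every other library of the series. For each annotated transcript model the files give the reads found in the 500 bp past its 3′ end, in polyadenylated RNA of 9-day-old Col-0 seedlings. There were 4 lines with 2 replicates each: wild type (WT), *fip37L*, *cpsf30-3* and *cpsf30-1*. The *fip37L* line lacks FIP37, a subunit of the enzyme complex that writes N6-methyladenosine (m6A) on mRNA, and carries a FIP37 transgene driven by the promoter of *LEC1*, an embryo gene, so the seedlings have lost FIP37 after embryogenesis. Both *CPSF30* lines are T-DNA insertion lines: *cpsf30-3* lacks the mRNA of the long isoform CPSF30L, while *cpsf30-1*, also called *oxt6*, lacks the long and the short isoform. The labels name no treatment. A pair of CPSF30 alleles was used, 1 line each, and nothing in the labels tells whether the replicates came from separate growths, so the p-values below measure only the spread between these libraries.

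Of 31109 windows, 1 per locus, 11906 held a WT mean of at least 5 raw counts, with an upper limit just under 500, and were eligible. A window was kept when both *cpsf30-1* libraries had at least 2 times the CPM (the count over the total of its library, times 1000000) of the highest of the other 6 libraries. This left 290 member windows, 2.44% of the eligible ones. The measured values of *cpsf30-1* therefore chose the members, and what follows about *cpsf30-1* itself is a description with no test. The same rule turned on the other lines kept 56 windows for *fip37L* (0.470%), 20 for WT (0.168%) and 3 for *cpsf30-3* (0.0252%).

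CPSF30 is a zinc finger subunit of the cleavage and polyadenylation specificity factor (CPSF), the complex that finds the poly(A) signal of a nascent transcript, after which the RNA is cut and the poly(A) tail is added. Where cleavage is not made at the usual place, the polymerase goes on into the sequence downstream, and the polyadenylated RNA can be longer than annotated or run into the next gene (readthrough, or a chimeric mRNA). In plants CPSF30 has a short isoform, which holds the zinc fingers, and a long isoform, which holds a YTH domain that binds m6A as well. The design thus compares loss of the mark, loss of the long isoform, and loss of both isoforms. Reads of a neighbouring gene that lies in a window also enter its count, and a count cannot tell these from readthrough. Counts over whole genes were not analysed here, so the markers of the tissue and the expression of the upstream gene were not checked directly. In such bulk samples fewer cells of a type and less RNA per cell cannot be told apart.

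The annotated 3′ ends of members with large values are shown here because the poly(A) signal is what CPSF reads. The sequences come from the TAIR10.1 assembly, each 30 bases long and read 5′ to 3′ along the transcript, with the hexamer AATAAA, the canonical animal form of the signal, in capitals where the last 50 bases before the annotated end hold it. AT3G05730 encodes a defensin-like protein (chr3:1696671-1696700, plus strand), *NEET* an iron-sulfur cluster protein (chr5:21010309-21010338, plus strand) and *GRP3S* a glycine-rich protein (chr2:1968000-1968029, plus strand). *GRP23*, another glycine-rich protein (chr2:13863635-13863664, minus strand), *MT2A*, a metallothionein (chr3:2889406-2889435, minus strand), and *PSAF*, a photosystem I subunit (chr1:11214676-11214705, minus strand), have no such hexamer there, and their last 30 annotated bases are given.
AT3G05730: tttctttttaatAATAAAattgttttgtgt
NEET: aatgaagcttatAATAAAggaaaaatattc
GRP3S: cgatgtttgcatAATAAAgttgtttctagt
GRP23: gatcttacaacacttgctaaaatgaattcg
MT2A: attaattttttatggatttatttggcttgg
PSAF: atagactaaattacttgtgtttcttcttaa
In the first 3 the hexamer ends 19 or 20 bases before the annotated end. Across the members, AATAAA on the transcribed strand stood in the last 50 bases of 33 of 289 placed windows (11.4%), compared with 9.57% of the eligible and 8.66% of all placed windows. TGTA, the letters bound by the cleavage factor CFIm in animals, stood in the last 100 bases of 162 (56.1%), compared with 54.4% and 50.4%. These shares lie close to one another. The windows had a median GC content of 34.8% in the members and 37.0% in the eligible set. Outside the chromosome 2 stretch described below, windows with no other gene had 32% in members and 31.4% in the eligible set. Those that overlap a gene had 37.6% and 37.8%, so within these classes the medians lay close.

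Before the results, 1 feature of the counts has to be set apart. On chromosome 2, 59 neighbouring windows from AT2G27710 to AT2G28270 (TAIR10.1, chr2:11817973-12055038, 237.1 kb) all held at least the same counts in every library. The WT libraries shared 34 and 53 such counts and the *fip37L* libraries 69 and 14. For *cpsf30-3* the shared counts were 35 and 51, whereas *cpsf30-1* reached 127 and 130. Why the windows share them was not tested. Of these 59 windows, 56 were eligible and 42 are members, 13 of them with exactly those counts and no others. The common counts made up a median of 98.8% of the *cpsf30-1* counts of the 42 members, and once they were subtracted 1 window of the stretch met the rule. The 42 members are thus close to a single measurement seen many times, with a ratio between 2.03 and 2.40 over the highest other library. They put 86 of the 290 members (29.7%) on chromosome 2, which holds 14.4% of the eligible windows, whereas outside the stretch chromosome 2 held 44 of 248 members (17.7%) and 14.0% of the eligible windows. The 248 members outside the stretch are the base of what follows unless all 290 are named.

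**Figure D1:**
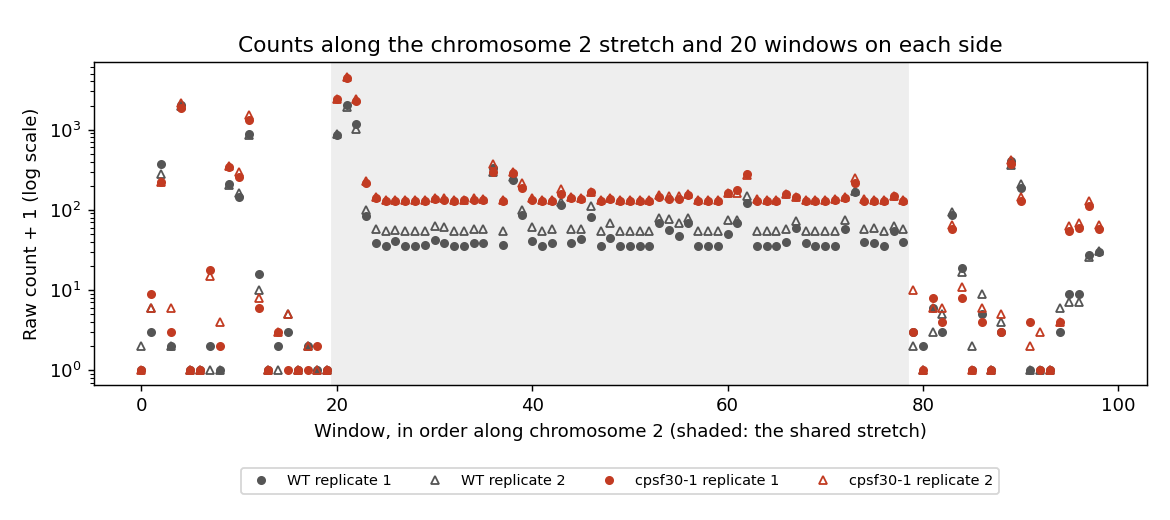
Raw count plus 1 (log scale) of the 2 WT and 2 *cpsf30-1* libraries in neighbouring windows of chromosome 2, with the stretch from AT2G27710 to AT2G28270 shaded and 20 windows on each side. No shaded window lies below 127 and 130 counts for *cpsf30-1* or 34 and 53 for WT, and most lie at or close to these values.

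Outside the stretch, the lower *cpsf30-1* library stood a median of 2.57 times above the highest of the other 6 libraries, with 85 windows at 3 times or more, 24 at 5 times or more and 2 at 10 times or more. The mean CPM in *cpsf30-1* was a median of 4.84 times the WT mean, from 2.32 to 65.2. Most members were low. The median of their mean raw counts was 9.50 for WT, 10.25 for the *fip37L* pair, 15.0 for *cpsf30-3* and 60.25 for *cpsf30-1*. All 248 had both *cpsf30-1* libraries above both WT libraries, as the rule requires, compared with 25.6% of the 11906 eligible windows. At the rule's edge, AT5G17900 (a microfibrillar-associated protein-like gene), *XTH31* (a xyloglucan-modifying cell wall enzyme) and AT1G67900 (an NPH3 family gene) were just inside, at ratios of 2.0012, 2.0028 and 2.0042. *RTNLB3*, AT4G11320 and *ACD32.1* were just outside, at 1.9989, 1.9989 and 1.9844.

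The largest ratio was that of *GRP23* (AT2G32690, window chr2:13863135-13863634). Its window held 1.10 and 1.49 CPM in the WT pair, 1.55 and 2.14 CPM for *fip37L*, 5.18 and 4.25 CPM for *cpsf30-3*, then 87.8 and 81.0 CPM for *cpsf30-1*. The means were 1.30 ± 0.277 (SD, n = 2) in WT and 84.4 ± 4.83 (SD, n = 2) in *cpsf30-1*, a ratio of 65.2. No other annotated gene lies in this window, and the next gene starts 1020 bp away. The pair of *cpsf30-3* libraries also stood above both WT libraries, at a log2 change of 1.92 ± 0.26 (SE; edgeR quasi-likelihood test, adjusted p = 0.0106).

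Next came AT5G59250, a sugar-transporter-like gene of the major facilitator superfamily, and AT5G59260, a lectin receptor kinase, which face each other 674 bp apart. AT5G59250 had 0.962 and 1.49 CPM in the WT pair, 0.713 and 0.987 CPM for *fip37L*, 0.954 and 1.47 CPM for *cpsf30-3*, then 19.1 and 15.6 CPM for *cpsf30-1*. AT5G59260 had between 0.823 and 1.43 CPM in the other 6 libraries and 13.1 and 13.3 in *cpsf30-1*. Their windows share 326 bases, so they are largely the same reads. Outside the stretch 6 such pairs of member windows overlapped, and the 247 placed members took up 242 separate positions.

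*MT2A*, which encodes a metal-binding metallothionein, had 0.275 and 1.49 CPM in the WT pair, 0.832 and 0.329 CPM for *fip37L*, 2.18 and 3.11 CPM for *cpsf30-3*, then 25.8 and 32.3 CPM for *cpsf30-1*. Here *cpsf30-3* lay above the WT and *fip37L* libraries, though its log2 change against WT of 1.64 ± 0.56 (SE) did not pass (edgeR, adjusted p = 0.167). The windows of AT3G05730 and *NEET* were low in the other lines, and neither passed the test in *fip37L* or *cpsf30-3*. AT3G05730 had from 0.817 to 1.97 CPM in the 6 libraries and 16.4 and 20.2 in *cpsf30-1*, and *NEET* from 0.545 to 1.63 and 12.6 and 12.8.

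Among the 12 largest ratios were *HEMA1*, AT3G60750 and *CP12-1*. *HEMA1* encodes glutamyl-tRNA reductase, which starts chlorophyll and haem synthesis, and its window had 0.824 to 1.55 CPM in the 6 other libraries and 11.8 and 15.1 in *cpsf30-1*. AT3G60750 encodes a transketolase, an enzyme of the Calvin cycle and the pentose phosphate pathway, and had 0.951 to 3.27 CPM against 23.7 and 32.4. *CP12-1*, a redox-sensitive scaffold of Calvin cycle enzymes, had 0.476 to 1.51 CPM against 13.6 and 12.3. In *CP12-1* both *cpsf30-3* libraries lay above both *fip37L* libraries and each line overlapped WT, while both *fip37L* libraries lay above WT in *HEMA1* and both *cpsf30-3* libraries did in AT3G60750. None of the 3 windows passed the test in *fip37L* or *cpsf30-3*.

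Neighbouring genes were sometimes both members. AT3G21670, a member of the nitrate transporter family, has a window that overlaps AT3G21660, a UBX domain gene whose own window is a member too. AT3G21670 had 2.34 and 1.94 CPM in the WT libraries and 22.3 and 18.9 CPM in *cpsf30-1*, and AT3G21660 had 0.275 and 1.19 against 8.87 and 7.78. Both *fip37L* libraries were under WT in AT3G21670, at 0.357 and 1.48. Also among the 12 largest ratios, AT5G24230, a lipase class gene, lies against AT5G24240 on the opposite strand. It had 1.32 to 2.59 CPM in the 6 libraries and 20.6 and 19.5 in *cpsf30-1*.

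**Figure D2:**
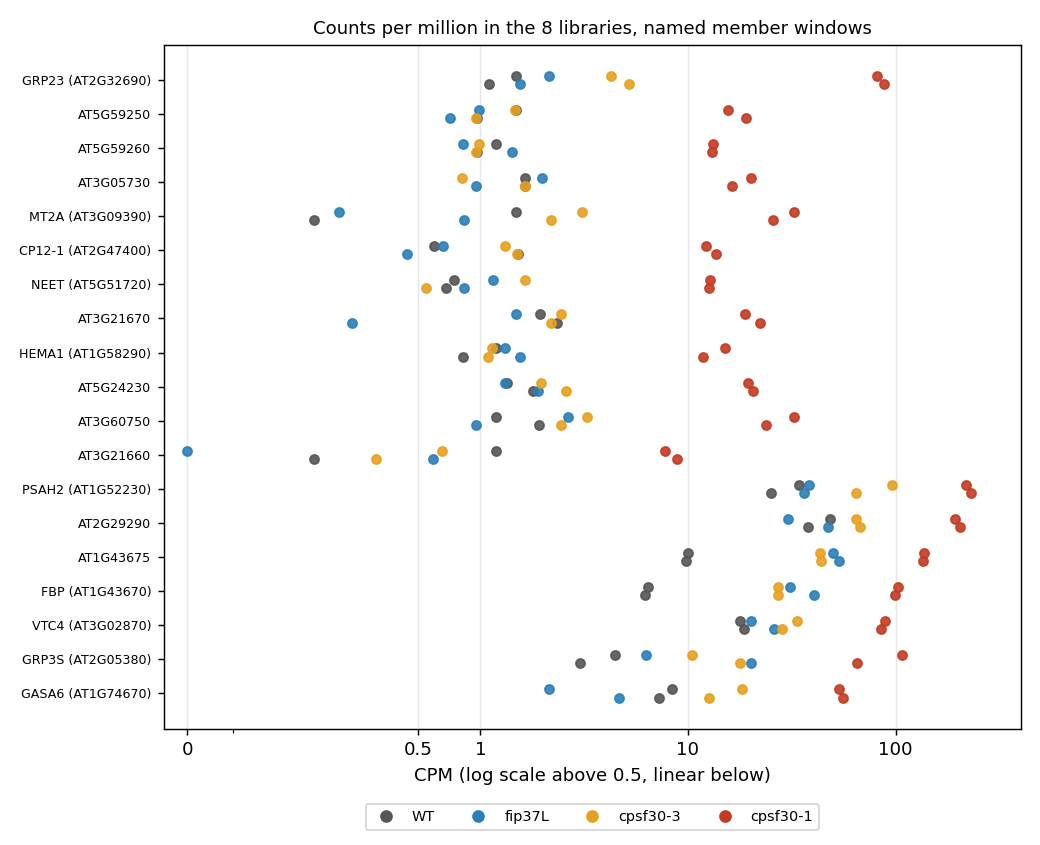
CPM (log scale above 0.5, linear below) in the 8 libraries for the 12 member windows with the largest ratio and the further 7 of the 8 with the largest *cpsf30-1* mean, 1 point per library. In each row both *cpsf30-1* points lie to the right of the other 6, from 7.78 CPM in AT3G21660 to 230 CPM in *PSAH2*.

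The largest *cpsf30-1* levels were found elsewhere, at windows with more reads in every line. *PSAH2*, a photosystem I subunit, had 25.1 and 34.3 CPM in the WT pair, 36.1 and 38.3 CPM for *fip37L*, 64.3 and 96.6 CPM for *cpsf30-3*, then 230 and 220 CPM for *cpsf30-1*. The lines stood in this order with no overlap between *cpsf30-3* and either side, and *cpsf30-3* passed the test against WT (log2 change 1.49 ± 0.19 SE, edgeR adjusted p = 0.00855). AT2G29290, a short-chain dehydrogenase-like gene, had 37.9 and 48.2 CPM in WT and 204 and 194 in *cpsf30-1*, and *VTC4*, which acts in the synthesis of ascorbate and inositol, had 18.6 and 17.8 against 85.5 and 89.1. All 3 windows overlap another annotated gene.

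*FBP*, a fructose bisphosphatase of sucrose synthesis, has a window that overlaps AT1G43675, annotated as a pseudogene, whose own window is also a member. *FBP* had 6.18 and 6.41 CPM in the WT pair, 40.4 and 31.1 CPM for *fip37L*, 27.2 and 27.3 CPM for *cpsf30-3*, then 99.1 and 102 CPM for *cpsf30-1*. AT1G43675 had 9.76 and 9.99, 53.5 and 49.8, 43.6 and 43.5, and 136 and 138 in the same order. Both windows were thus high in all 3 mutants, with *fip37L* called as well at log2 changes of 2.61 ± 0.16 and 2.49 ± 0.11 (SE; edgeR, adjusted p = 4.75e-05 and 9.35e-06), and they are members because *cpsf30-1* was at least 2 times higher still.

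The replicates of *GRP3S* lay far apart, at 65.0 and 108 CPM in *cpsf30-1* and 20.1 and 6.25 in *fip37L*, with 3.02 and 4.47 in WT. *GASA6*, a gibberellin-regulated cell wall peptide gene, had 7.28 and 8.35 CPM in WT and 55.8 and 53.6 in *cpsf30-1*. In *fip37L* it had 4.64 and 2.14, below both WT libraries (log2 change −1.04 ± 0.32 SE, edgeR adjusted p = 0.0455).

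Genes of the chloroplast and of photosynthesis, grouped by words in their product names, held 17 of the 248 members (6.85%) and 132 of the 11850 eligible windows outside the stretch (1.11%). Among eligible windows of this group 12.9% were members, compared with 2.09% of all. The share was above that of the other genes at each WT level: 17.1% against 4.51% at 5 to under 20 counts, 19.1% against 1.14% at 20 to under 100, and 2.27% (1 window) against 0.0853% at 100 to under 500. The groups were fixed with earlier results of these data known, and no test was made of them.

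Photosystem I genes made up part of this group. Photosystem I is the pigment-protein complex of the thylakoid that reduces ferredoxin; its light-harvesting antenna is built of LHCA proteins, and its nuclear-encoded core subunits carry PSA names. Counted by symbol, a count made after the values were seen, 8 of 16 eligible windows of *PSA* and *LHCA* genes were members, compared with 3 of 19 of the *PSB* and *LHCB* genes of photosystem II. The 8 were *LHCA1*, *LHCA2*, *LHCA3*, *PSAD-1*, *PSAD-2*, *PSAF*, *PSAH2* and *PSAK*. Other photosystem I windows did not follow: *PSAG* had a ratio of 0.0667 and *PSAO* of 0.276, which means that a *cpsf30-1* library was well below the highest other library.

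*LHCA2* had 2.06 and 2.54 CPM in the WT pair, 2.02 and 1.97 CPM for *fip37L*, 6.27 and 7.85 CPM for *cpsf30-3*, then 40.8 and 34.3 CPM for *cpsf30-1*. The *fip37L* libraries lay just below WT and those of *cpsf30-3* above it (log2 change 1.66 ± 0.24 SE, edgeR adjusted p = 0.0145). *PSAF*, the subunit that docks plastocyanin, had 10.99 and 12.5 CPM in the WT pair, 12.01 and 12.3 CPM for *fip37L*, 9.81 and 13.7 CPM for *cpsf30-3*, then 55.9 and 53.2 CPM for *cpsf30-1*. In this window the other 3 lines overlapped, and they did so in *LHCA3*, with 1.79 to 2.47 CPM in the 6 libraries and 13.0 and 10.8 in *cpsf30-1*. *LHCA1* had 0.165 to 2.04 CPM in the 6 libraries and 10.06 and 9.95 in *cpsf30-1*. *PSAK* rose in *fip37L* as well, from 2.34 and 2.39 CPM in WT to 6.30 and 6.91 (log2 change 1.58 ± 0.27 SE, edgeR adjusted p = 0.00414), and reached 22.004 and 18.5 in *cpsf30-1*. Within the group of 17, *cpsf30-1* was a median of 4.64 times WT, *cpsf30-3* 1.48 times and *fip37L* 1.25 times.

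**Figure D3:**
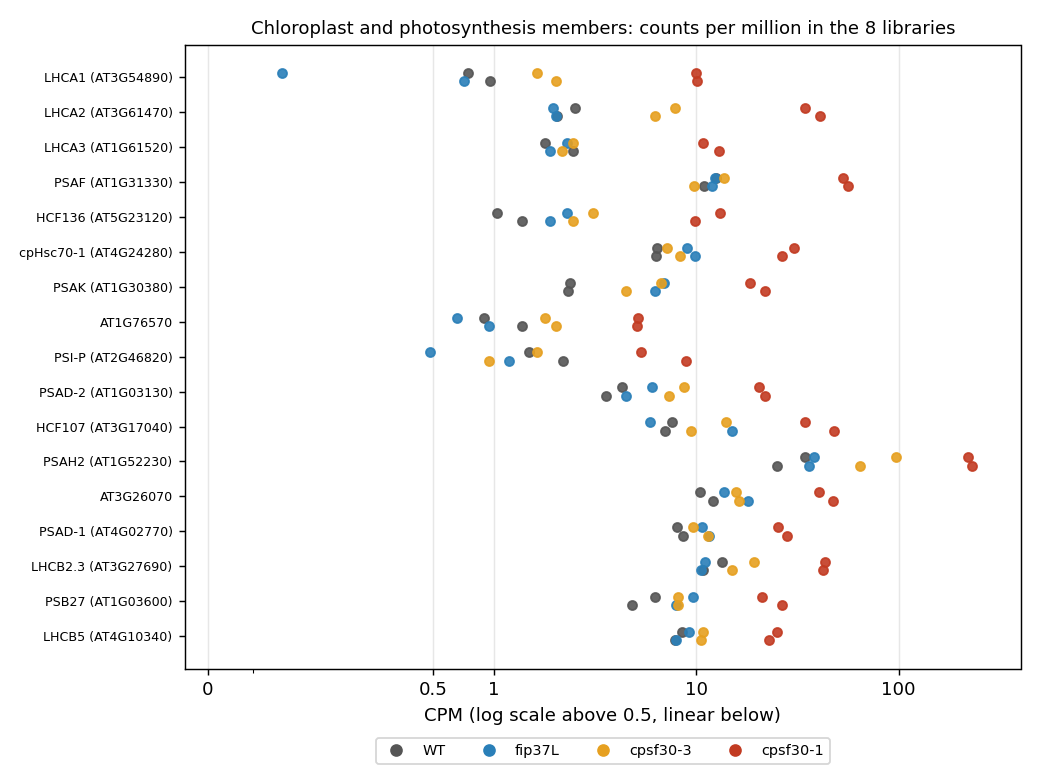
CPM (log scale above 0.5, linear below) in the 8 libraries for the 17 chloroplast and photosynthesis members, 1 point per library, ordered by ratio. The *cpsf30-1* points lie to the right in each row, and those of *LHCA2* and *PSAH2* show *cpsf30-3* between WT and *cpsf30-1*.

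Cell wall and lipid genes held 14 of the 248 members (5.65%, compared with 2.65% of the eligible windows), among them *XTH7* and *EXGT-A3*, both xyloglucan endotransglucosylases of the wall. Transferases and oxidoreductases held 28 (11.3% against 9.25%), with the glutathione transferase *GSTU19* at the largest ratio of that group. Protein kinases and phosphatases held 16 (6.45% against 6.41%). Transcription factors held 2 (0.806% against 4.73%), ribosome and translation genes 2 (0.806% against 2.67%) and RNA-binding and processing genes 6 (2.42% against 3.84%). A further 134 members matched no keyword.

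The machinery of cleavage and polyadenylation was looked at as a list of 24 genes. *CSTF50* (AT5G60940), a WD40 subunit of the cleavage stimulation factor, was the only one of its 18 eligible windows that is a member. It had 0.824 and 1.04 CPM in the WT pair, 0.832 and 1.15 CPM for *fip37L*, 2.72 and 2.45 CPM for *cpsf30-3*, then 5.97 and 6.05 CPM for *cpsf30-1*. The groups stood apart except for *fip37L* and WT, although *cpsf30-3* against WT missed the threshold (log2 change 1.52 ± 0.35 SE, edgeR adjusted p = 0.0639), and the window overlaps AT5G60945 on the same strand. Of the 15 tested, 2 were called higher than WT in *cpsf30-1* (*CSTF50* and the poly(A)-binding protein gene *PAB2*), 2 in *cpsf30-3* (*PAB2* and *CPSF73-I*, the endonuclease subunit) and 1 in *fip37L* (*PAB2*), with none lower. Over all windows tested, 11.0%, 1.33% and 7.10% were called higher in these lines, and with 15 windows the counts show nothing particular to the list. The call of *CSTF50* in *cpsf30-1* follows from the rule. *PAB2* is no member, as its lower *cpsf30-1* library stood at 0.42 times the highest other library. Its window was called higher in each mutant, with raw counts of 10 and 4 for WT, 41 and 48 for *fip37L*, 34 and 44 for *cpsf30-3* and then 35 and 23 for *cpsf30-1*. The window of *CPSF30* held 0 to 4 counts per library, and that of *FIP37* held 56 and 37 for WT but 149 and 105 for the *fip37L* libraries. Both lie outside the genes, so they do not check the labels.

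The position of the windows was not used by the rule. Outside the stretch, 103 of 248 members (41.5%) overlapped no other annotated gene, 85 (34.3%) a gene on the same strand and 59 (23.8%) only genes on the opposite strand, with 1 not placed. In the eligible set these shares were 14.8%, 33.1% and 51.3%. Read the other way, 5.87% of eligible windows with no other gene were members, 2.17% of those over a gene of the same strand and 0.970% of those over the opposite strand alone. The WT level moved with both: at 5 to under 10 counts the 3 shares were 7.94%, 5.01% and 4.06%, and at 50 to under 100 counts 3.33%, 1.11% and 0.735%, while at 100 to under 500 counts 0 of 97 free windows were members. The order of the classes thus held within the 4 lower levels. For all 290 the free share was 44.1%.

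**Figure D4:**
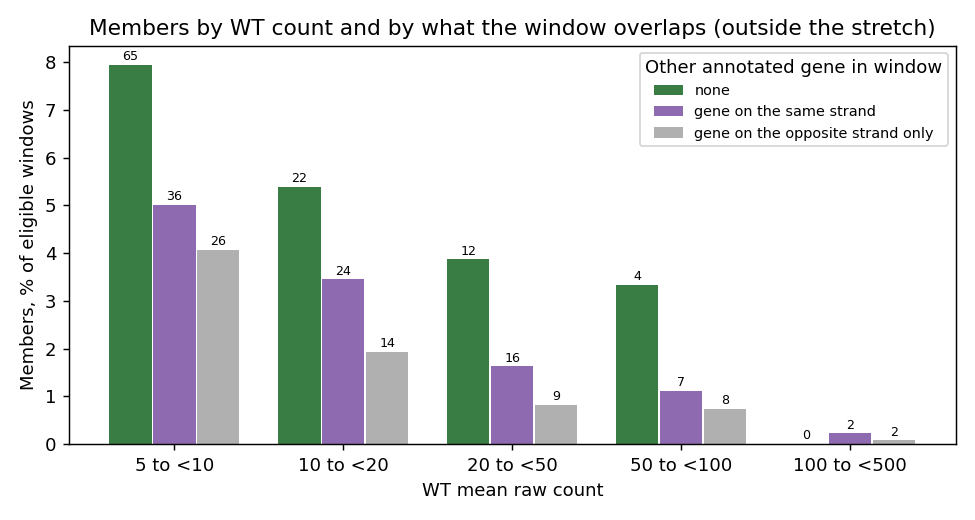
Members as a percent of eligible windows outside the stretch (y axis, from 0), by WT mean raw count and by the other annotated gene in the window, with the number of members on each bar. The bar of windows with no other gene is the highest in the 4 lower levels, at 7.94% for 5 to under 10 counts.

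The next annotated gene downstream was a median of 355 bp from the end of a member and 64 bp in the eligible set, and lay 500 bp or more away for 41.7% and 14.93%. It was on the same strand in 59.92% of members and 39.55% of eligible windows. For the 56 windows raised only in *fip37L* the median was 70.5 bp and the same-strand share 39.3%. Windows that lay wholly over genes of the opposite strand had a median WT count of 118. The median was 31.8 for those wholly over genes of the same strand and 0 for those with no other gene. Windows over genes of either strand thus held more reads. The study describes its downstream read density as strand-specific for another mutant, and for the libraries used here the strand setting is not stated. The windows of *RD19* (minus strand) and *VHA-A3* (plus strand) share 337 bases and held the same counts in all 8 libraries. In these windows, then, reads were counted whatever the strand of the window.

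A locus can have several annotated ends. At 53 member loci 62 further transcript models had counts that differed from the member window, and 40 of these had a WT mean in the same range. The ratio was at least 2 in 20 of the 40, between 1 and 2 in 12 and at most 1 in 8. AT1G13930, an oleosin-like gene, shows the last kind: its first model is a member at a ratio of 5.72, while its other models, which end elsewhere, had a ratio of 0.668 and 184 and 150 counts in WT against 103 and 118 in *cpsf30-1*.

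The level over a part of the gene itself can be read where the window of a neighbouring gene happens to lie on it. For 78 members outside the stretch, a window that is no member covered at least 250 bases of the member gene and no other gene. These windows were chosen after the data were seen, and 71 passed the filter on low counts. Leaving out member windows also leaves out windows over a gene that themselves met the rule, such as those over AT3G21660 and *QWRF3*. The values over the gene in *cpsf30-1* are thus limited by the choice. The median log2 change against WT over the gene was 0.07 in *cpsf30-1* (quartiles −0.26 and 0.60), whereas the downstream windows of the same 71 genes had a median of 2.16, a value the rule had selected. In *cpsf30-1*, 12 of the 71 (16.9%) were called higher and 2 (2.82%) lower, compared with 11.0% and 2.57% of all windows tested. For *LHCB5*, an antenna protein of photosystem II, the window over the gene held 26809 and 23110 counts in WT and had a log2 change of −0.07 in *cpsf30-1* (edgeR, adjusted p = 0.638), beside 1.56 downstream. *PSAH2* fell by 0.43 over the gene (adjusted p = 0.00317, same fit), beside a downstream change of 2.93. The window over 320 bases of *LHCA1* rose by 1.84 (adjusted p = 0.00872, same fit), from 7 and 15 counts in the WT libraries to 39 and 33, beside 3.52 downstream. The window over *RBOHA*, an NADPH oxidase gene, rose by 2.14 (adjusted p = 0.00748, same fit), from 5 and 5 counts to 20 and 21, beside 4.24 downstream. The counts over *LHCA1* and *RBOHA* are far below those over *LHCB5*, and such low windows may not stand for the level of the whole gene.

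**Figure D5:**
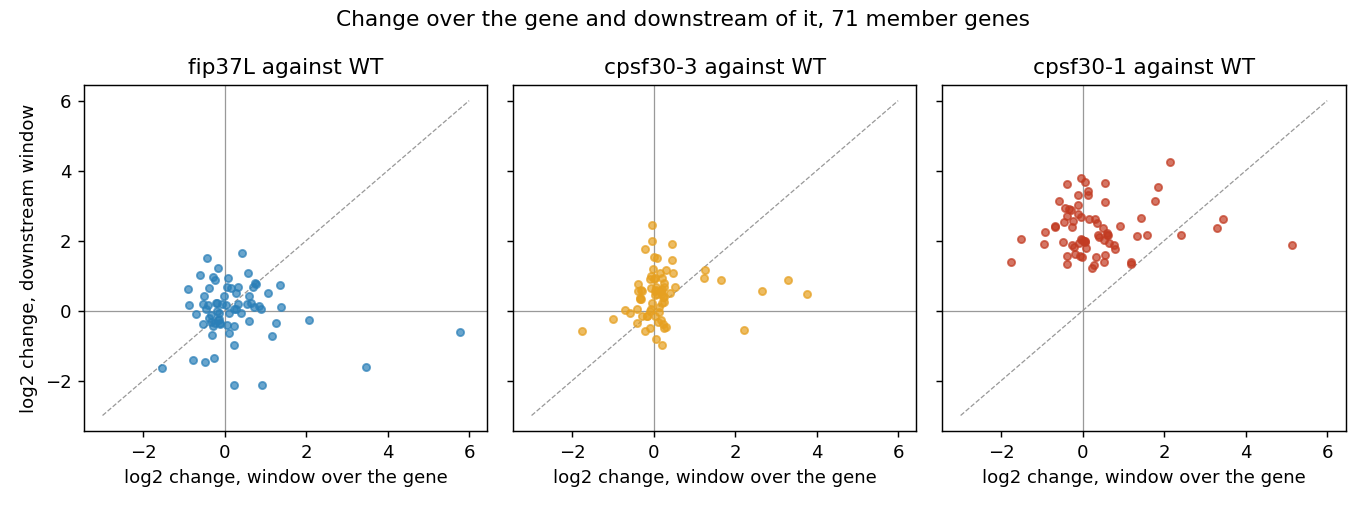
The log2 change against WT in a window over the member gene (x axis) and in its downstream window (y axis) for 71 member genes, 1 panel per mutant, with the dashed line at equal change. In the *cpsf30-1* panel 67 of 71 points lie above the line, as the rule favours, and the values over the gene centre near 0 with a median of 0.07. Windows over a gene that are members themselves were left out, which favours both.

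The comparison of *cpsf30-3* with WT asks whether loss of the long isoform alone moved the same windows. It shares the WT libraries with the *cpsf30-1* contrast, and the rule keeps every *cpsf30-3* library at least 2 times below *cpsf30-1*, so the choice of members limits its upper end. All 290 members passed the filter on low counts, as they had to through their *cpsf30-1* counts. In *cpsf30-3*, 16 members were called higher than WT (edgeR, adjusted p under 0.05 and at least 2-fold) and 0 lower, compared with 1.33% and 0.159% of all 12583 windows tested. DESeq2 called 15 members higher and 0 lower, compared with 1.15% and 0.135% of all windows in that fit. The 16 lie outside the stretch, which makes 6.45% of 248. Where only the WT and *cpsf30-3* libraries were fitted, so that the filter did not see *cpsf30-1*, 165 of the 248 were tested and 29 (17.6%) were called higher and 0 lower, with 3.38% and 0.668% over all windows of that fit. A member low in WT could pass that filter through its *cpsf30-3* counts, so the choice of the 165 favours higher values. Their median log2 change was 0.58 in that fit, compared with 0.42 for the 248 in the main fit. The count of 16 rested on the libraries in the fit. With 1 library left out the share of all windows called moved too, so those counts are not set beside the 16. The median log2 change over all 290 was 0.27 to 0.48 in those fits.

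The median log2 change of the members in *cpsf30-3* was 0.42 outside the stretch and 0.28 over all 290, compared with −0.0002 over all windows tested. Both *cpsf30-3* libraries stood above both WT libraries in 118 of the 248 (47.6%, and 19.3% of the eligible windows) and below in 22 (8.87%, and 33.9%). The shares over all 11906 eligible windows were 19.3% and 33.7%. Of the 6 libraries that set the rule's bar, the highest belonged to *cpsf30-3* in 138 members (55.6%), to WT in 55 and to *fip37L* in 55. The largest increase on the log2 scale was that of *HCF244*, a factor for the synthesis of the photosystem II protein D1. Its window, free of other genes, had 1.10 and 0.447 CPM in the WT pair, 1.66 and 2.47 CPM for *fip37L*, 6.13 and 8.01 CPM for *cpsf30-3*, then 37.4 and 33.7 CPM for *cpsf30-1*, a change in *cpsf30-3* of 3.19 ± 0.36 (SE, edgeR adjusted p = 0.00511). AT5G18630, a lipase-like hydrolase gene, followed at 2.92 ± 0.34 (adjusted p = 0.00552), AT5G14910, a heavy-metal-associated domain gene, at 2.87 ± 0.29 (adjusted p = 0.00259), AT4G17565, an F-box gene whose window had 1.24 and 0.895 CPM in the WT libraries and 5.04 and 7.03 in *cpsf30-3*, at 2.52 ± 0.37 (adjusted p = 0.0155) and *RBOHA* at 2.45 ± 0.29 (adjusted p = 0.00552), all from the same edgeR fit. *FBP* and AT1G43675, with values above, changed by 2.17 ± 0.16 (adjusted p = 6.18e-04) and 2.19 ± 0.11 (adjusted p = 5.52e-05).

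In *fip37L* the members did not stand out by count. There were 20 called higher than WT and 8 lower (edgeR), 8.06% and 3.23% of the 248, compared with 7.10% and 2.85% of all windows tested. Here too the rule sets an upper bound, and the members passed the filter through their *cpsf30-1* counts. Where only the WT and *fip37L* libraries were fitted, 139 of the 248 were tested. Of these, 11 (7.91%) were called higher and 1 (0.719%) lower, with 5.84% and 2.37% over all windows of that fit. Their median log2 change was 0.195, with 0.006 over all windows of that fit. A member low in WT could pass that filter through its *fip37L* counts, so the choice of the 139 favours higher values. Both the 20 and the 8 depended on the libraries in the fit. With 1 library left out the share of all windows called moved too. Both *fip37L* libraries stood above both WT libraries in 58 of the 248 (23.4%, and 22.2% of all eligible windows) and below in 75 (30.2%, and 36.7%). The median log2 change was −0.03 outside the stretch and −0.08 over all 290, with 0.03 over all windows tested, and its sign depended on single libraries: it was 0.17 over the 290 without *fip37L* replicate 2 and 0.10 without WT replicate 2. The *fip37L* replicates had the widest spread, with a biological coefficient of variation of 21.5%, compared with 6.36% in WT, 12.4% in *cpsf30-3* and 8.72% in *cpsf30-1*. *YSL5*, a gene of the yellow stripe-like metal transporter family, rose in *fip37L*, while *cpsf30-3* had a log2 change of −0.13 ± 0.26 (SE; edgeR, adjusted p = 0.869); the difference between the mutants was not tested. It had 2.75 and 2.83 CPM in the WT pair, 6.90 and 5.76 CPM for *fip37L*, 2.45 and 2.45 CPM for *cpsf30-3*, then 19.4 and 19.6 CPM for *cpsf30-1* (log2 change 1.29 ± 0.22 SE in *fip37L*, edgeR adjusted p = 0.00454). *SIR*, the sulfite reductase of sulfur assimilation, rose in *fip37L* by 1.45 ± 0.29 (log2, SE; edgeR, adjusted p = 0.00862), with 4.12 and 2.98 CPM in WT, 10.9 and 7.07 in *fip37L* and 3.68 and 5.23 in *cpsf30-3*. AT2G45180, a lipid-transfer-like gene, fell in *fip37L* from 10.03 and 11.04 to 4.16 and 5.59 CPM (log2 change −1.02 ± 0.19 SE, edgeR adjusted p = 0.00623) and had 16.8 and 15.4 in *cpsf30-3* and 50.7 and 44.8 in *cpsf30-1*. *CIP7*, a COP1-interacting protein gene, changed by 2.05 ± 0.34 (log2, SE; edgeR, adjusted p = 0.00391) in *fip37L* and by 1.92 ± 0.35 (adjusted p = 0.0315) in *cpsf30-3*, contrasts that share the WT libraries. *D-CDES*, a D-cysteine desulfhydrase gene, and *GLYI8*, a glyoxalase family gene, were called higher in *fip37L*, at 1.97 ± 0.38 (edgeR, adjusted p = 0.00742) and 1.52 ± 0.31 (adjusted p = 0.009). In *cpsf30-3* they missed the threshold, at 1.83 ± 0.39 (adjusted p = 0.0506) and 1.15 ± 0.33 (adjusted p = 0.138).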

How the data were processed

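Per the labels, polyadenylated RNA was sequenced with a stranded kit in single reads of 75 bp, whereas the methods of the study give longer reads, paired for a 9-day set with *cpsf30-1*; the labels were followed. Per the study and the submitters' processing notes, the authors removed organellar and ribosomal reads with Bowtie2 2.3.4, mapped the rest to TAIR10 with TopHat2 2.0.7 and counted reads in 500-bp windows with BEDTools; the study calls its downstream density strand-specific for another mutant, and the strand setting for these libraries is not stated. Facing windows of *RD19* and *VHA-A3* on opposite strands held the same counts, as given above. The deposited values are raw counts, with 39087 transcript models per library and column totals from 5862499 to 8411827. A floor of 3 counts equals 0.357 to 0.512 CPM and covers counting error only.

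The first model of each locus was used. Windows were placed on TAIR10.1 by the reference annotation, which may end genes elsewhere than the authors' file: of 2170 sets of models with 1 shared reference end, 83.0% had identical counts. Counts were fitted in R 4.3.3 with the edgeR 4.0.16 quasi-likelihood test (two-sided, TMM, filter by group, 4 groups, 4 residual degrees of freedom, 12583 windows, Benjamini-Hochberg). With 2 against 2 libraries an exact permutation test cannot go below p = 0.333, so none was used. The fit was tested on simulated data. DESeq2 1.42.0, other scalings, filters and left-out replicates were alternatives. Tables and motif counts were made in Python 3.11.15.

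The members, gene lists and keyword groups were chosen with earlier results of these data known. The text names the 12 members of largest ratio, the 8 of largest *cpsf30-1* mean, the 6 free windows of largest ratio, up to 10 called per other contrast by adjusted p, 3 on each side of the threshold, the targeted genes and listed pathway genes. Other genes named were chosen after their values were seen. *HEMA1* falls under translation by its product words. Gene names come from RefSeq; AT1G53870 and AT1G53890, both members, belong to 1 gene family and may share reads.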

Additional observations from a re-analysis of the deposited data

How the results depend on the processing

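Members are mostly low (a WT median of 9.50 counts), each group has 2 libraries, and neighbouring genes share windows, which limits any single value. The number of member windows was 258 with TMM-scaled CPM, 276 with the last model of a locus, 293 with no upper WT limit and 248 outside the chromosome 2 stretch, an alternative added after the data were seen. It became 547 at a ratio of 1.5, 85 at a ratio of 3, and 103 at a WT mean of 20 or more, and lay between 306 and 371 without any 1 replicate of the series except *cpsf30-1* replicate 2 (429), where the rule asks less.

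For *cpsf30-3* against WT, the 16 members called higher became 36 with no filter on low counts and 29 with only the 2 groups compared, against 2.34% and 3.38% of all windows in those fits, and ranged from 4 (without either WT replicate) to 33 (without either *fip37L* replicate) with 1 library left out, with 8 to 10 without a *cpsf30-3* or *cpsf30-1* replicate, where the lone library is assumed to vary like the other groups. None was called lower, except 1 with no filter and 0 to 1 with 1 library left out. In the fits with 1 library left out, the share of all windows called higher fell where the member count fell and rose where it rose. The range from 4 to 33 therefore does not show how the members alone depend on a library. The median log2 change of 0.28 was 0.42 outside the stretch and 0.27 to 0.48 with 1 library left out. For *fip37L* against WT, the 20 called higher became 9 with DESeq2 and 11 with only the 2 groups, and 8 to 23 with 1 library left out. The share of all windows called higher moved too, from 7.10% in the main fit to 4.24% with DESeq2 and 5.84% with only the 2 groups. With only the 2 groups, 181 of the 290 members were tested. With 1 library left out, that share fell where the member count fell and rose where it rose. The 8 called lower (2.85% of all windows) became 2 with DESeq2 (1.61%) and 2 at a mean of 20 counts (2.52%). They became 1 with only the 2 groups (2.37%) and 5 with the replicate block (2.65%). Both the 20 and the 8 moved with 1 library left out. The median of −0.08 had the opposite sign without WT replicate 2 (0.10) and without *fip37L* replicate 2 (0.17), and reached −0.35 without *fip37L* replicate 1. The cause of these moves was not tested, beyond the fewer libraries or other filters that define them.

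Replicate numbers are shared by name only, as the deviations of same-numbered libraries correlated at −0.017 for *fip37L*, −0.089 for *cpsf30-3* and 0.044 for *cpsf30-1* with WT. With a replicate block the calls were 15 higher in *cpsf30-3* and 17 higher and 5 lower in *fip37L*. Over all windows of that fit the shares in the same order were 1.03%, 6.83% and 2.65%. Scaling by library size moved the median of all windows by −0.12 (log2) in *fip37L*, to which the changes there are relative.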
